A study of Mus musculus with 9 samples.

Results

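Occupancy of the histone deacetylase Hdac2 was mapped by chromatin immunoprecipitation and sequencing (ChIP-seq) in cells from 3 lines of mouse embryonic stem (ES) cells, labelled Bry, Hd1_loxlox and Hd2lox. These 3 Hdac2 libraries, 1 from each line, were all the Hdac2 libraries among the 9 samples of the study, and were compared only with each other. The study, by its title, concerns Hdac1 and Hdac2, TGF-beta and the transition from endothelium to blood, and its other 6 samples were not used here. All 3 Hdac2 samples were haemogenic endothelium that had been derived in culture from ES cells of the C57BL/6 strain, and were precipitated with an Hdac2 antibody from abcam. No treatment is recorded. Bry cells were at passage 16 to 19 and cells of the other lines at passage 25 to 30. The labels do not state what the line names stand for, which alleles the lines carried, whether a deletion had been induced, or whether a line was 1 clone. For each library the positions of the called peaks on mm10 were at hand, 9279 peaks for Bry, 5161 for Hd1_loxlox and 9082 for Hd2lox. The lists hold no read counts or heights, so the sequencing depth is unknown. A region without a peak may therefore have had too few reads to be called. With 1 library per line there was no replicate and no test between lines, and the line, its passage and its library cannot be told apart. Peaks of a deacetylase do not measure expression, so the labelled cell type could not be checked against expressed markers.

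Hdac2 is a class I histone deacetylase that removes acetyl groups from histone tails. It has no sequence-specific DNA-binding domain of its own and works within large complexes, among them Sin3, NuRD and CoREST, which transcription factors bring to promoters and enhancers. Haemogenic endothelium is the specialised endothelium of the embryo from which the first blood stem and progenitor cells emerge, a step in which endothelial genes are shut down while blood genes are turned on, and TGF-beta and Notch signals both act on it.

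The promoters of 6 genes illustrate the gene starts at which the lists met and those that the Hd1_loxlox list added. Each is the RefSeq promoter on GRCm38.p6, the assembly named mm10, running 5′ to 3′ along the gene from 250 bases before the start to 50 bases after it. Capitals mark CpG dinucleotides, which are counted in the promoters of every class further on. Plxnc1 (chr10:94944796-94945095, minus strand) and Klhl21 (chr4:152008641-152008940, plus strand) had an Hdac2 peak at the start in all 3 lists, and Plxnc1 encodes a semaphorin receptor. Trim71 (chr9:114564320-114564619, minus strand), which encodes an RNA-binding ubiquitin ligase of embryonic cells, and Klf13 (chr7:63938866-63939165, minus strand), a Krüppel-like transcription factor gene, had a peak in Bry and Hd2lox. Tmem91 (chr7:25675117-25675416, minus strand) and Ncan (chr8:70120795-70121094, minus strand), the gene of the brain proteoglycan neurocan, had a peak in Hd1_loxlox only.
Plxnc1: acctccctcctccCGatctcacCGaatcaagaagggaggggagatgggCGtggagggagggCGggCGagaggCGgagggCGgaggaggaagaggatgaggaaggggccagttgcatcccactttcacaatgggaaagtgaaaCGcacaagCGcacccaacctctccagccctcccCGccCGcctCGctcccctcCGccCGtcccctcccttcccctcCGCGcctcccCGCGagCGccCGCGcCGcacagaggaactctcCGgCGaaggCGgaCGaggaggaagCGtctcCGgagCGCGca
Klhl21: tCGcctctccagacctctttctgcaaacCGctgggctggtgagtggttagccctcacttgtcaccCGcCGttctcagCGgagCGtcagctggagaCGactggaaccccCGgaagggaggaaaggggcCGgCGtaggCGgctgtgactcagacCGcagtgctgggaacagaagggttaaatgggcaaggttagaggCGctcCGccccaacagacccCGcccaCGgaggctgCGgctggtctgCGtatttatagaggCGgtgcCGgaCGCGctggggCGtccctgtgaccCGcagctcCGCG
Trim71: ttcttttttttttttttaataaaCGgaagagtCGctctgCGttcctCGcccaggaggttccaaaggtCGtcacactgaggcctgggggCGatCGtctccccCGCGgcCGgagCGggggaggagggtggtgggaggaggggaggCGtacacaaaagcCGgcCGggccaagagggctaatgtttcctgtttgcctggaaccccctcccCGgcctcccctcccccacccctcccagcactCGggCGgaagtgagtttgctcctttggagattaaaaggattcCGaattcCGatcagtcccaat
Klf13: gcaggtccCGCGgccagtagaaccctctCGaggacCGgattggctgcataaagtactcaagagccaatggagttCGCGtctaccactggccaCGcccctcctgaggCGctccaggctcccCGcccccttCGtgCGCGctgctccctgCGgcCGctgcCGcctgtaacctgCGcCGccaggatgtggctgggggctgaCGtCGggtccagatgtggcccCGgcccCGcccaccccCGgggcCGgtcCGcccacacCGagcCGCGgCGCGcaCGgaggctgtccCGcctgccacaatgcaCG
Tmem91: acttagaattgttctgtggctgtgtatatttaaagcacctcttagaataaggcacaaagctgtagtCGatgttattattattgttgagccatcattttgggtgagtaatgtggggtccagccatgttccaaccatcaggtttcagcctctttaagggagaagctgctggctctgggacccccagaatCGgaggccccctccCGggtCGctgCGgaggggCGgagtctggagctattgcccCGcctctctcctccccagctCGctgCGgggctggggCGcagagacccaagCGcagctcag
Ncan: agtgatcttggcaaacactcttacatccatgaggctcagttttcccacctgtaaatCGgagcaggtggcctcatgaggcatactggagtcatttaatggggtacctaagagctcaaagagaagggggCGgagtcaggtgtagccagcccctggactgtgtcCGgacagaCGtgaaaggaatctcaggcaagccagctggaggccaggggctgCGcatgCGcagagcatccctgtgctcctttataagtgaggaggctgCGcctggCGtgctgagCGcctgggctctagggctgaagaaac
The 300 bases held 30 CpG at Plxnc1, 26 at Klhl21, 19 at Trim71 and 32 at Klf13, against 11 at Tmem91 and 9 at Ncan. The Bry peaks covered all 300 bases of the first 4 promoters. The Hd2lox peaks covered all of Plxnc1 and Klf13, 184 bases of Klhl21 and none of Trim71, where the peak lay inside the gene. The Hd1_loxlox peaks covered 135 bases of Plxnc1 and 0 bases of the other 5, so that even at Tmem91 and Ncan its peak lay beside the promoter and not on it.

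The lists differed in the number, width and place of their peaks. The Bry peaks were the widest, with a median of 1310 bp and a middle 50% from 1071 to 1668 bp. In Hd1_loxlox the median was 1099 bp (830 to 1274 bp), and in Hd2lox it was 822 bp (760 to 921 bp). Each list had a least width that many peaks shared. In Hd2lox 2512 peaks (27.7%) were exactly 760 bp wide, in Hd1_loxlox 217 (4.20%) were 566 bp, and in Bry 79 (0.851%) were 785 bp. Peaks over 2000 bp were a feature of Bry, with 1130 (12.2%) against 55 (1.07%) in Hd1_loxlox and 22 (0.242%) in Hd2lox. The covered length was 13.3 Mb in Bry, 5.60 Mb in Hd1_loxlox and 8.01 Mb in Hd2lox.

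Peaks were placed relative to protein-coding gene starts, and a peak was called at a gene start when it overlapped the 1000 bp on either side. Such windows make up 1.97% of the annotated span of the chromosomes. In Bry 6979 peaks (75.2%, Wilson 95% interval 74.3 to 76.1%) were at a gene start, in Hd2lox 2847 (31.3%, 30.4 to 32.3%) and in Hd1_loxlox 438 (8.49%, 7.76 to 9.28%). The Wilson intervals here and below cover counting error only, and neighbouring peaks are not independent. Peaks at gene starts were wider than those away from them in Bry (medians of 1376 and 1139 bp) and in Hd2lox (893 and 793 bp), but not in Hd1_loxlox (1057.5 and 1102 bp). Among the peaks away from gene starts, 56.8% in Bry, 51.8% in Hd1_loxlox and 43.6% in Hd2lox lay within a protein-coding gene, and such genes cover 37.9% of the span.

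What Bry and Hd2lox shared was mainly gene starts. Merging the 3 lists gave 20859 regions, and the 7 combinations of lists differed in where their regions lay. Bry and Hd2lox, without Hd1_loxlox, shared 2143 regions, of which 1932 (90.2%, Wilson interval 88.8 to 91.3%) were at a gene start. This share was above that of the 6815 regions in Bry alone (70.7%) and far above that of the 6740 regions in Hd2lox alone (11.97%). Most of what was particular to the Hd2lox list thus lay away from gene starts. Of the 211 shared regions away from gene starts, 171 (81.0%) lay within a gene. The widest of these were within Cpeb2 (chr5:43232001-43235294, 3294 bp), which encodes a cytoplasmic polyadenylation regulator, and 49210 bp from Gpc5 (chr14:115039821-115042991, 3171 bp), the gene of the proteoglycan glypican 5.

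**Figure D1:**
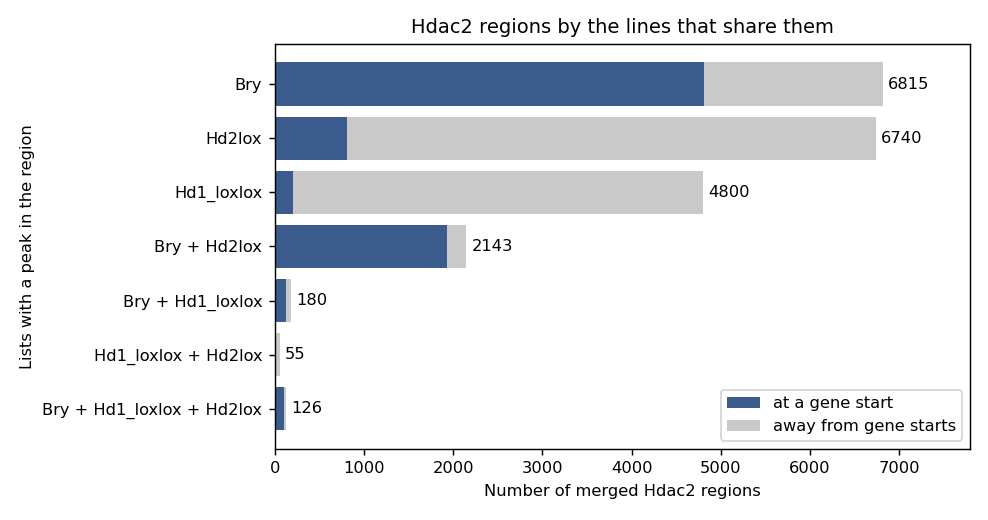
Number of merged Hdac2 regions (horizontal axis) in each combination of lists (vertical axis), split into those at a protein-coding gene start (dark) and away from one (grey). The 2143 regions of Bry and Hd2lox are nearly all dark, whereas the 4800 of Hd1_loxlox alone are nearly all grey.

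Hd1_loxlox mainly added regions of its own, and few of them were at gene starts. Of its regions 4800 were in no other list, 180 were shared with Bry alone, 55 with Hd2lox alone and 126 with both. Only 207 of the 4800 (4.31%, Wilson interval 3.77 to 4.92%) were at a gene start, against 123 of the 180 shared with Bry (68.3%) and 103 of the 126 in all 3 lists (81.7%, 74.1 to 87.5%). The other 4593 lay away from gene starts, 51.4% of them within a gene. As a share of each list, 24.6% of Bry peaks overlapped an Hd2lox peak and 25.2% of Hd2lox peaks a Bry peak. For Hd1_loxlox and Bry the shares were 5.93% of the Hd1_loxlox list and 3.35% of the Bry list. For Hd1_loxlox and Hd2lox they were 3.29% and 1.89%.

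The overlap with Bry depended on where a peak lay. Of the Hd2lox peaks at gene starts 71.1% (2024 of 2847) overlapped a Bry peak, and of those away from gene starts 4.20%. Likewise, of the few Hd1_loxlox peaks at gene starts 49.3% (216 of 438) overlapped a Bry peak, and of those away 1.91%. Seen from Bry, 29.2% of the peaks at gene starts and 10.4% of those away overlapped an Hd2lox peak, but for Hd1_loxlox the shares were close, at 3.25% and 3.65%. Width went with overlap in 2 of the lists. From the narrowest to the widest 25% of Hd2lox peaks, 5.02%, 21.2%, 29.3% and 46.8% overlapped a Bry peak, and of Bry peaks 14.3%, 19.9%, 27.0% and 37.0% overlapped an Hd2lox peak. In Hd1_loxlox the order was the opposite, with 8.60% of the narrowest 25% and 4.89% of the widest 25% overlapping Bry.

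At shared places the Hd2lox peak usually sat inside the Bry peak. Over 2297 pairs of overlapping peaks the median widths were 1493 bp in Bry and 905 bp in Hd2lox, and the Bry peak was the wider in 91.6%. In 1462 pairs (63.6%) the Hd2lox peak was wholly contained, and the centres were a median of 175.5 bp apart. Spearman's rho between the widths over these pairs was 0.131, a description across peaks of 2 libraries. Over the 311 pairs of Bry with Hd1_loxlox the medians were 1555 and 1005 bp and the centres lay 331.5 bp apart. There the Hd1_loxlox peak was contained in 47.9% of pairs. For the 172 pairs of Hd2lox with Hd1_loxlox the widths were close, with medians of 944 and 997 bp, and the centres were 292.5 bp apart.

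Around the gene starts themselves, Bry and Hd2lox differed in position by a little and in extent by a lot. Among 21263 starts with a known position and strand, the base at the start was covered by a Bry peak at 6783 (31.9%), by an Hd2lox peak at 2171 (10.2%) and by an Hd1_loxlox peak at 193 (0.908%). Coverage in Bry was highest at the start, whereas in Hd2lox (10.8%) and Hd1_loxlox (0.945%) it was highest 200 bp into the gene. Coverage in Hd2lox dropped faster, to 0.724% at 1000 bp before the start and 1.88% at 1000 bp after it, against 6.66% and 10.003% in Bry. At 3000 bp before and after the start, coverage was 1.06% and 0.762% in Bry, 0.348% and 0.404% in Hd2lox and 0.292% and 0.325% in Hd1_loxlox, so that the lists were nearer to each other there than at the start. Of peaks with a centre within 1000 bp of a start, 67.2% in Bry, 65.1% in Hd1_loxlox and 81.2% in Hd2lox had that centre on the gene side. The median distance to the nearest known start was 0.380 kb in Bry, 31.0 kb in Hd2lox and 40.3 kb in Hd1_loxlox. Peaks over 100 kb from a known start made up 9.89%, 30.0% and 29.7% of the 9023, 8789 and 5066 peaks measured in these lists. Chromosome 18 has no known start and was left out. Starts of other genes missing from the promoter table were not counted either, so these distances may be too long.

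**Figure D2:**
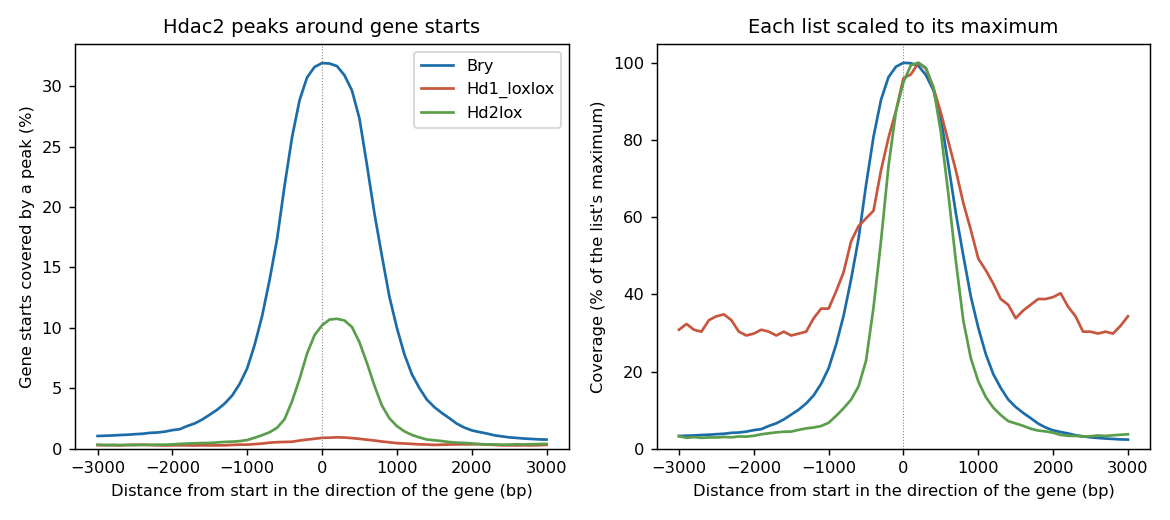
Share of 21263 known gene starts covered by an Hdac2 peak (vertical axis, %) against distance from the start in the direction of the gene (horizontal axis, bp), as measured (left) and with each list scaled to its own maximum (right). Bry is the highest and widest curve at 31.9%, Hd2lox is narrower and centred downstream of the start, and Hd1_loxlox reaches 0.945%, with edges that stand high in the scaled panel because its maximum is low.

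The Hd1_loxlox peaks away from gene starts were spread unevenly over the chromosomes. They numbered 5.94 per Mb on chromosome 11, 4.95 on chromosome 8 and 3.25 on chromosome 16, whereas the other 16 autosomes lay between 0.971 (chromosome 18) and 1.84 per Mb (chromosome 17). These 3 chromosomes were chosen after their values were seen. Together they held 35.6% of the Hd1_loxlox peaks away from starts (Wilson interval 34.3 to 37.0%), with 12.8% of the span and 15.2% of the genes. In Bry the share was 25.2% (23.4 to 27.0%), with chromosomes 8 (2.24 per Mb) and 11 (1.79) above the range of the other 16 (0.494 to 1.08) and chromosome 16 (0.734) within it. In Hd2lox the share was 13.97% (13.1 to 14.9%), and only chromosome 11, at 3.002 per Mb, lay just above the range of the other 16 (1.34 to 2.94). The high numbers in Hd1_loxlox ran along the whole of chromosomes 8 and 11. In 20 Mb bins they were 3.80 to 8.29 peaks per Mb on chromosome 8 and 4.50 to 7.80 on chromosome 11. On chromosome 16 they were 2.40 to 4.20, against 0.55 to 2.03 on chromosome 1. Some bins of other autosomes lay within the range of chromosome 16. Among these, 120 to 140 Mb held 3.55 per Mb on chromosome 5 and 3.35 on chromosome 4. The X chromosome held few peaks away from starts in any list, with 2 in Hd1_loxlox, 14 in Bry and 54 in Hd2lox. Whether the lines differed in the number of copies of chromosomes 8, 11 and 16, which could change these peak counts, was not tested. Input reads, which could show it, were not used here.

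**Figure D3:**
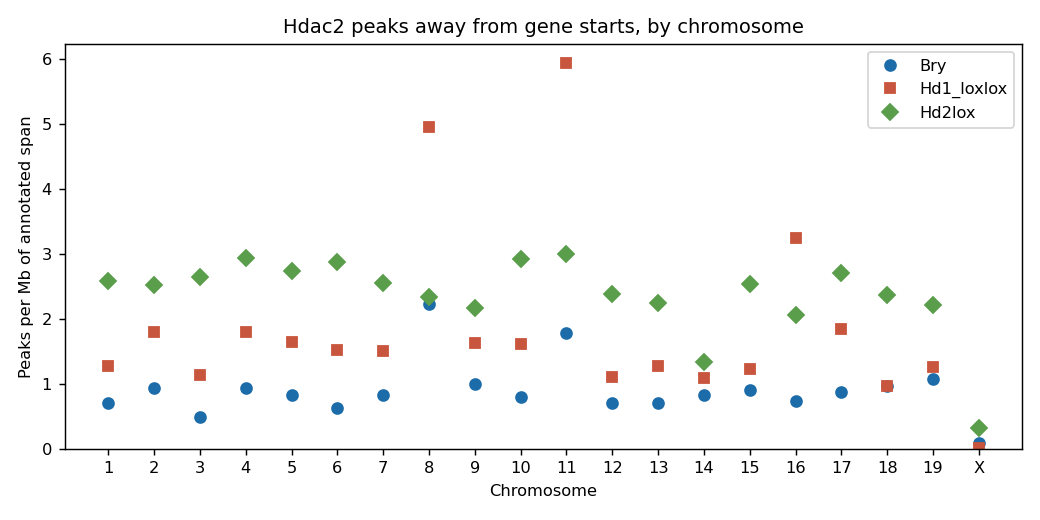
Hdac2 peaks away from gene starts per Mb of annotated span (vertical axis) on each chromosome (horizontal axis), with 1 point per list. The Hd1_loxlox squares on chromosomes 8, 11 and 16, at 4.95, 5.94 and 3.25, stand above those of all other chromosomes.

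Peak width went with this pattern. In the narrowest 25% of Hd1_loxlox peaks (566 to 829 bp), 741 of the 1157 away from starts (64.0%, Wilson interval 61.2 to 66.8%) were on chromosomes 8, 11 and 16. In the next widths it was 30.9% and then 25.8%, and in the widest 25% of peaks it was 22.5% (20.2 to 25.0%). Of the 217 peaks at the least width of 566 bp, 171 (78.8%) were on these 3 chromosomes, against 20 of 79 (25.3%) at the least width in Bry and 369 of 2512 (14.7%) in Hd2lox. The same shares ran from 22.5 to 26.6% in Bry and from 12.8 to 14.96% in Hd2lox, a much smaller spread. Of the regions that Hd1_loxlox shared, 43 of the 126 in all 3 lists (34.1%), 65 of the 180 with Bry alone (36.1%) and 12 of the 55 with Hd2lox alone (21.8%) were on these chromosomes, against 17.4% of the regions of Bry and Hd2lox. Gene starts were compared in the same way. On chromosomes 8, 11 and 16 together, 4.38% of genes had an Hd1_loxlox peak at the start and 46.9% a Bry peak, against 1.84% and 35.03% on the other autosomes, whereas for Hd2lox the shares were 14.8% and 14.3%. This came from chromosomes 8 and 11, since on chromosome 16 the shares were 2.21% in Hd1_loxlox and 35.9% in Bry, within the range of the other 16 autosomes (0.965 to 2.48% and 24.7 to 42.98%). Counts of members with an Hd1_loxlox peak below therefore include peaks of these chromosomes, and their part in each count was not tested.

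At the level of genes, 7685 of 21887 protein-coding genes (35.1%) had a Bry peak at the start, 2986 (13.6%) an Hd2lox peak and 465 (2.12%) an Hd1_loxlox peak. Both Bry and Hd2lox had one at 2195 genes (10.03%), and all 3 lists at 123 (0.562%). For 4395 genes whose start is not in the promoter table both annotated ends were used. These percentages are the background for every group of genes below. Of the Hd2lox genes 73.5% were Bry genes, and of the Bry genes 28.6% were Hd2lox genes, so the Hd2lox set was for the most part a subset of the Bry set. Of the Hd1_loxlox genes 59.4% were Bry genes and 30.5% were Hd2lox genes. Hd1_loxlox alone marked 170 genes (0.777% of all genes), Hd2lox alone 772 (3.53%) and Bry alone 5337 (24.4%), and these shares are the background for genes in 1 list only.

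The 123 genes marked in all 3 lines included regulators of signalling and chromatin. By mean rank of peak width, the first 10 were Plxnc1, Klhl21, Kmt2a, Acvr2b, Ube2q2, Irf2bp2, Cnnm1, Phyhipl, Ankrd34b and Nol4l. At Kmt2a, which encodes a histone H3 lysine 4 methyltransferase that blood stem cells need, the peaks were 2973 bp in Bry (chr9:44880591-44883563), 1967 bp in Hd1_loxlox (chr9:44881012-44882978) and 976 bp in Hd2lox (chr9:44880764-44881739). The 3 lists covered 728 bp of this start in common. At Acvr2b, the gene of an activin type II receptor, the peaks were 2295, 1735 and 1018 bp, and 655 bp were common to the lists. Plxnc1 had peaks of 3369, 1554 and 1540 bp, with 779 bp in common. Klhl21, which encodes an adaptor of a ubiquitin ligase, had peaks of 3658, 1511 and 1296 bp with 554 bp in common. Irf2bp2, a corepressor gene, had the widest Bry peak of the 10, at 5074 bp, but its Hd1_loxlox peak (1264 bp) and Hd2lox peak (1312 bp) did not touch each other. So a gene in all 3 lists need not have had 1 common site.

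Sites covered by all 3 lists at once were counted directly. There were 117 such stretches in 114 regions, 90 of them at a gene start, with a median length of 697 bp. The 5 longest were chr12:80757460-80759256 within Ccdc177 (1797 bp), chr14:19417571-19419096 with no gene nearer than Gm2244 at 114604 bp (1526 bp, not checked against any list of sites with artificially high signal), chr1:89580499-89581927 within Agap1 (1429 bp), chr13:92425758-92427081 at the start of Ankrd34b (1324 bp) and chr17:66448793-66449966 at the start of Mtcl1 (1174 bp). Away from gene starts 23 regions were in all 3 lists. They included regions within Pdgfb, the gene of a platelet-derived growth factor chain, within Pax5, a B-cell transcription factor gene, and within Nr3c1, the glucocorticoid receptor gene. The starts of Nr3c1 are not in the promoter table and only its annotated ends were tested. Its region may therefore lie at an internal start. In the Pax5 region, however, no base was covered by all 3 lists at once. Another, at chr16:30008138-30009585, lay 55772 bp from Hes1, a Notch target gene.

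Bry and Hd2lox, without Hd1_loxlox, marked 2072 genes. By mean rank of peak width the first 15 were Trim71, Klf13, Nsd1, Arid1a, Igf2bp2, Zfp521, Gm35364, Msi2, Mafa, Nsd2, Ier5l, Mex3b, Smad7, Rims2 and Foxf1. Trim71 had peaks of 4564 bp in Bry and 2089 bp in Hd2lox, and Klf13 of 4027 and 2096 bp. Among chromatin genes, Nsd1 and Nsd2, which encode histone H3 lysine 36 methyltransferases, had peaks of 3484 and 2889 bp and of 3010 and 1694 bp. Arid1a, which encodes a subunit of the BAF chromatin remodeller, had 3281 and 1992 bp. Of the 15, Igf2bp2 (3133 and 2369 bp), Msi2 (3563 and 1564 bp), known from blood stem cells, and Mex3b (3670 and 1438 bp) encode RNA-binding proteins. Foxf1, a forkhead gene of the mesoderm, had 2671 and 2180 bp, among the widest of the Hd2lox list. In all of these the Bry peak was the wider one.

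Of the 170 genes marked in Hd1_loxlox only, the first 10 by peak width were Tmem91 (2105 bp), Mgp (2074 bp), Capn5 (1968 bp), Igsf5 (1905 bp), Ncan (1873 bp), Acpp (1854 bp), Tyrobp (1810 bp), Krt5 (1753 bp), Arhgef1 (1751 bp) and Dpysl3 (1720 bp). Mgp encodes an inhibitor of calcification in cartilage and arteries, Krt5 a keratin of basal epithelium, Tyrobp a signalling adaptor of myeloid and natural killer cells, and Dpysl3 a neuronal protein. The starts of Mgp, Capn5, Igsf5, Tyrobp and Dpysl3 are not in the promoter table, so their peaks may lie at the far end of the gene. The widest regions of Hd1_loxlox alone were away from gene starts. They lay at chr11:55187556-55190799, 2457 bp from Slc36a2 (3244 bp), at chr7:136817203-136820248, 74215 bp from Mgmt (3046 bp), at chr11:34229569-34232170 within Dock2 (2602 bp), at chr2:35782268-35784795 within Ttll11 (2528 bp) and at chr2:131750925-131753343, 100335 bp from Erv3 (2419 bp).

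Bry alone had its widest peaks at Gadd45g (6130 bp), a stress-response gene, Bahcc1 (5948 bp), Dusp4 (5595 bp), a phosphatase of MAP kinases, Pcdh7 (5144 bp), a protocadherin, and Myc (5142 bp). Hd2lox alone had them at Cdkn1c (2795 bp), which encodes an inhibitor of cyclin-dependent kinases, Tmem200b (2366 bp), and Fam217b and Ppp1r3d, which shared 1 peak of 2052 bp.

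In the TGF-beta pathway, extracellular ligands bind pairs of receptor kinases, which phosphorylate Smad proteins that enter the nucleus, and inhibitory Smads and co-repressors restrain them. Marking by Bry and Hd2lox ran from ligands to targets, and Hd1_loxlox marked 1 receptor gene and 1 target gene. Over all genes the shares were 35.1% in Bry, 13.6% in Hd2lox and 2.12% in Hd1_loxlox. Few genes of any group would thus be in the Hd1_loxlox list, and its low counts are not particular to this pathway. Among 11 genes of ligands and latency proteins, 5 had a Bry peak, 4 an Hd2lox peak and 0 an Hd1_loxlox peak, and 3 had the first and the second. At Tgfb1, the main ligand gene, the Bry peak was 3755 bp (chr7:25686594-25690348) and the Hd2lox peak 844 bp (chr7:25686507-25687350). Ltbp1, whose product holds the latent ligand in the matrix, had 2331 and 1159 bp, and its relative Ltbp3 had 1172 and 836 bp. The third relative, Ltbp4, was marked in Hd2lox only (1029 bp).

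Of 9 TGF-beta receptor genes 6 were marked in Bry, 3 in Hd2lox and 1 in Hd1_loxlox. Acvr2b was in all 3 lists, and Tgfbr1, the type I receptor gene, was in Bry (1988 bp) and Hd2lox (803 bp). Tgfbr2, its type II partner, was in Bry only (2244 bp). Acvrl1 and Eng, the receptor genes characteristic of endothelium, were in no list. All 8 Smad genes were marked in Bry and 4 of them in Hd2lox, with both annotated ends used for Smad2, Smad4 and Smad7. These 4 were Smad7 and Smad6, which encode the inhibitory Smads, with 3969 and 1425 bp at Smad7 and 2316 and 1021 bp at Smad6, and Smad1 (1627 and 822 bp) and Smad9 (1069 and 1137 bp), transducers of BMP signals. Smad2, Smad3, Smad4 and Smad5 were in Bry only. The Smads marked in both lines thus included neither Smad2 nor Smad3, the TGF-beta transducers, a description over 8 genes with no test.

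Of 13 Smad modulators and co-repressors all 13 were marked in Bry and 4 in Hd2lox, namely Pmepa1, a feedback inhibitor (1948 and 851 bp), Zfyve9, which presents Smads to the receptor (1087 and 1210 bp), Fkbp1a, which binds the type I receptor (1081 and 921 bp), and Smurf2, a ubiquitin ligase (1160 and 822 bp). The co-repressor genes Ski, Skil, Tgif1 and Ncor1 were in Bry only. Of 12 target genes 7 were marked in Bry and 3 in Hd2lox, and these 3 were Twist1 (1811 and 1171 bp), Zeb1 (2767 and 819 bp, at an annotated end, since its start is not in the promoter table) and Zeb2, whose peaks of 1384 and 1127 bp lay at different starts of the gene. All 3 encode transcription factors of the transition from epithelium or endothelium to mesenchyme. The one Hd1_loxlox target was Col1a1, a collagen gene on chromosome 11, with 1139 bp at its upper annotated end. Its start is not in the promoter table, so this may be the far end of the gene.

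The related BMP pathway and the Notch pathway, which sets arterial and haemogenic fate, were examined next. Of 16 BMP signalling genes 10 (62.5%) were marked in Bry, 3 (18.75%) in Hd2lox and 1 (6.25%) in Hd1_loxlox. Over all genes the shares were 35.1%, 13.6% and 2.12%. The ligand gene Bmp7 was in all 3 lists, with 1357 bp in Bry, 1517 bp in Hd1_loxlox and 1059 bp in Hd2lox, and 668 bp were common to them. Its relative Bmp2 was in Bry (2450 bp) and Hd2lox (1048 bp). Of 18 Notch genes 16 were marked in Bry and 8 in Hd2lox, all of the 8 also in Bry, against 10.03% of all genes marked in both. The ligand gene Jag2 had peaks of nearly equal width, 2180 and 1949 bp. The receptor gene Notch1 had 1166 and 1282 bp, with the wider peak in Hd2lox. Rbpj, the DNA-binding mediator, had 3515 and 786 bp, and the target Hes1 had 4048 and 802 bp, with the Hd2lox peak (chr16:30066760-30067561) inside the gene at its upper end. The start of Hes1 is not in the promoter table, so this may be the far end of the gene, although Hes1 is counted among the 8. Notch4 and Mfng, a glycosyltransferase that modifies Notch, were in no list.

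Regulators of blood formation were compared against 35.1% of all genes in Bry and 13.6% in Hd2lox. Of 30 haematopoietic transcription factor genes 21 (70.0%) were in Bry, 7 (23.3%) in Hd2lox, 6 in both and 3 in Hd1_loxlox. In both Bry and Hd2lox were Kmt2a, Cebpa (2842 and 1429 bp), Cebpb (2166 and 2046 bp), Hhex (3166 and 903 bp), Gata2 (3561 and 809 bp) and Zfpm1 (4904 and 760 bp), a cofactor of GATA proteins. The Gata2 peaks lay apart, the Bry peak at chr6:88196786-88200346 and the Hd2lox peak at chr6:88193514-88194322. Runx1, which drives the endothelial to blood step, was in Bry only, with 2864 bp (chr16:92696509-92699372) at an internal start. Gfi1 (3590 bp) and Gfi1b (2025 bp), the repressors that silence endothelial genes during this step and recruit CoREST, were in Bry only, as were Tal1 (1343 bp) and Myb (2796 bp). The Hd1_loxlox members besides Kmt2a were Meis1 (675 bp) and Ikzf1 (632 bp), both on chromosome 11 and within the narrowest 25% of the list.

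Of 30 endothelial genes 18 were in Bry, 7 in Hd2lox, all 7 also in Bry, and 1 in Hd1_loxlox. The shared ones included Efnb2, an arterial ephrin (2008 and 941 bp), Klf2, a flow-responsive factor (1900 and 1062 bp), Flt4, a lymphatic growth factor receptor (1832 and 875 bp), Egfl7 (1522 and 897 bp) and Rasip1 (1289 and 1157 bp). Elk3, an ETS repressor gene, was in Bry (2238 bp) and Hd1_loxlox (1753 bp). Of the endothelial marker genes, Kdr (1701 bp), Cdh5 (785 bp, the least width in Bry) and Pecam1 were in Bry only. Tek, Tie1, Esam and Emcn were in no list, nor was Eng among the receptor genes above. Genes of blood cells were marked rarely, with 3 of 20 in Bry (Kit, 2080 bp, Itga2b, 1541 bp, and Itgb3), 1 in Hd2lox (Gp1bb, 962 bp) and 0 in Hd1_loxlox. Cardiac and smooth muscle genes had 4 of 16 in Bry, 1 in Hd2lox (Hand2, 1952 and 935 bp, also in Bry) and 1 in Hd1_loxlox (Hand1, 584 bp). Of 10 pluripotency genes 3 were in Bry and 2 in Hd2lox, with Klf5 in both (1839 and 975 bp) and Sox2 in Hd2lox only (811 bp). The markers Pou5f1, Nanog and Zfp42 were in no list.

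Genes of the deacetylase complexes were marked in both Bry and Hd2lox, with some differences between them. Of 34 subunit genes 24 were in Bry, 13 in Hd2lox, 8 in both and 0 in Hd1_loxlox. Among the 8 were Rcor2 (2531 and 982 bp) and Rcor3 (2562 and 829 bp) of CoREST, Ing1 (4074 and 845 bp), Ing2 (2852 and 830 bp) and Sap30 (1795 and 777 bp) of Sin3, and Mideas, whose peaks of 2189 and 846 bp lay at different starts. In Hd2lox only were 5 of the 34 members, beside 3.53% of all genes. They were Kdm1a, the demethylase of CoREST (1005 bp), Mta1 and Chd3 of NuRD (779 and 979 bp), Arid4b (968 bp) and Dnttip1 (765 bp). The Hdac2 gene itself was in Bry only (1456 bp). At Hdac1, whose start is not in the promoter table, the Bry peak (chr4:129513200-129515322) lay outside the gene beyond its lower end, and may belong to a neighbour. Of 18 histone deacetylase genes of all classes 10 (55.6%) were in Bry and 2 (11.1%) in Hd2lox, beside 35.1% and 13.6% of all genes. The Hd2lox share was thus near its background. The 2 were Hdac7 (1830 and 923 bp) and Hdac5 (1737 and 827 bp), both class IIa. Polycomb genes had 22 of 24 in Bry, 8 in Hd2lox and 2 in Hd1_loxlox, Ezh2 (566 bp) and Kdm2b (771 bp).

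The other groups differed in how their counts compared between Bry and Hd2lox. Of 20 immediate early genes, which growth signals switch on within minutes, 19 were in Bry and 1, Ier5, in Hd2lox (1567 and 1077 bp), with Jun, Fos and Junb in Bry only. Mitochondrial ribosomal protein genes had 44 of 78 in Bry and 1, Mrps6, in Hd2lox. Cytosolic ribosomal protein genes had 40 of 84 and 5, and nuclear-encoded subunits of the respiratory chain had 32 of 86 and 1, Atp5a1. Replication-dependent histone genes had 16 of 64 and 0. In Hd2lox the shares of these 5 groups lay below its background of 13.6%, but translation initiation factor genes, with 18 of 28 in Bry and 6 (21.4%) in Hd2lox, lay above it. Among families of developmental regulators the counts varied. Fox genes had 25 of 44 in Bry and 26 in Hd2lox, with 19 in both, among them Foxc1 (2933 and 1219 bp) and Foxc2, which was in all 3 lists (2141 bp in Bry, 995 bp in Hd1_loxlox and 2177 bp in Hd2lox). Sox genes had 9 of 19 in each, Wnt ligand genes 9 of 19 in each, and Lhx, Pax and Pou genes 8 and 10 of 32. Tbx genes had 5 of 14 in Bry and 4 in Hd2lox, and Zic, Irx and sine oculis homeobox genes 10 of 17 and 7. Potassium channel genes, a group of another kind, had 25 and 28 of 93. Plexin and semaphorin genes had 11 and 10 of 17, with 7 in both. Hox genes had more members in Hd2lox (9 of 39) than in Bry (5). Of the 39, 7 were in Hd2lox alone, beside 3.53% of all genes. Among these 7 were Hoxb4 (862 bp), Hoxa10 (874 bp) and Hoxd13 (1052 bp). The Fox, Sox, Wnt, Tbx, Lhx with Pax and Pou, Zic with Irx and sine oculis, potassium channel and respiratory chain groups were chosen after values had been seen, so their counts are a description only.

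Olfactory receptor genes, which these cells should not use, had 0 of 1110 in Bry, 6 (0.541%) in Hd2lox and 6 (0.541%) in Hd1_loxlox, with no gene in both. Vomeronasal receptor genes had 0, 0 and 1 of 353. The 6 Hd1_loxlox peaks at olfactory receptor genes stand beside 465 genes in the whole list, so even there its share lay below its background of 2.12%. Among Wnt ligand genes 3 of 19 were in Hd1_loxlox, of which Wnt4 and Wnt9b were in all 3 lists. At Wnt9b, on chromosome 11, all peaks were narrow, at 984, 668 and 760 bp in Bry, Hd1_loxlox and Hd2lox.

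**Figure D4:**
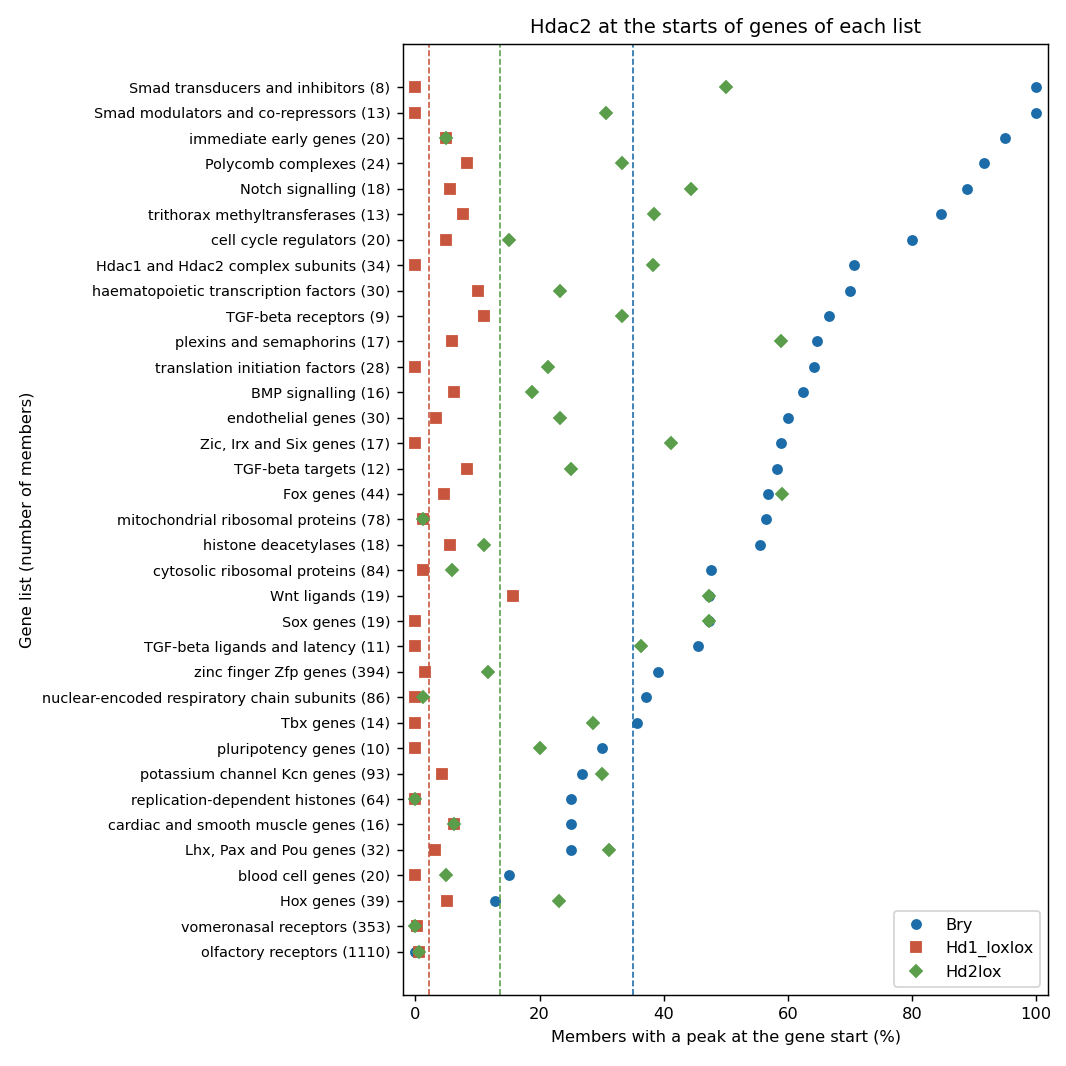
Share of the members of each gene list with an Hdac2 peak at the start (horizontal axis, %), with the number of members in brackets and the share over all genes as a dashed line for each list. Smad genes, co-repressors and immediate early genes lie near the right edge in Bry, the Fox, Sox and Wnt groups have Hd2lox and Bry points close together, and the Hd1_loxlox points stay at 15.8% or below.

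Promoter sequence differed between the classes of known starts. Each start was classed by the peaks in its own window, so an unmarked start of a marked gene counts as in no list. Promoters marked in Bry and Hd2lox had a median of 31 CpG in 300 bases (n = 1918) and those in all 3 lists 34 (n = 95). The medians were 23 in Bry alone (n = 5174), 26 in Hd2lox alone (n = 725) and 13 over all 21263 promoters. Promoters of Hd1_loxlox alone had a median of 7 (n = 129), close to the 5 of those in no list (n = 13081). The peak did not always reach the promoter counted. Of 365 known starts with an Hd1_loxlox peak in the window, 226 (61.9%) had a peak touching the 300 bases. In Bry this share was 94.7% and in Hd2lox 84.4%. The promoter values of Hd1_loxlox, here and below, thus often describe sequence beside its peak. The median GC content ran in nearly the same order, at 71.7% for all 3 lists, 69.3% for Bry and Hd2lox, 67.3% for Hd2lox alone, 62.3% for Bry alone, 56.7% for Hd1_loxlox alone and 51.3% for no list. Of the promoters marked in Bry and Hd2lox 91.5% had 15 CpG or more, against 33.3% of those in Hd1_loxlox alone.

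Occupancy climbed with CpG count in Bry and Hd2lox, but along different curves. With 0 to 4 CpG, 1.84% of promoters were marked in Bry and 1.09% in Hd2lox, and with 40 or more the shares were 82.1% and 54.7%. At 20 to 24 CpG Bry had reached 56.6% and Hd2lox 13.8%, so most of the climb in Bry came at lower counts and most of that in Hd2lox at higher counts. The share of Bry promoters also marked in Hd2lox was 23.4% at 0 to 4 CpG, where few Bry promoters lay (111), and 18.8% at 5 to 9, was lowest at 10 to 14 (10.8%) and was highest at 40 or more (54.4%). In Hd1_loxlox the share went from 0.812% to 4.63%. Of the promoters printed above, the Tmem91 and Ncan promoters of Hd1_loxlox alone had the fewest CpG (11 and 9), and Klf13 (32) had more than Plxnc1 (30) and Klhl21 (26).

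**Figure D5:**
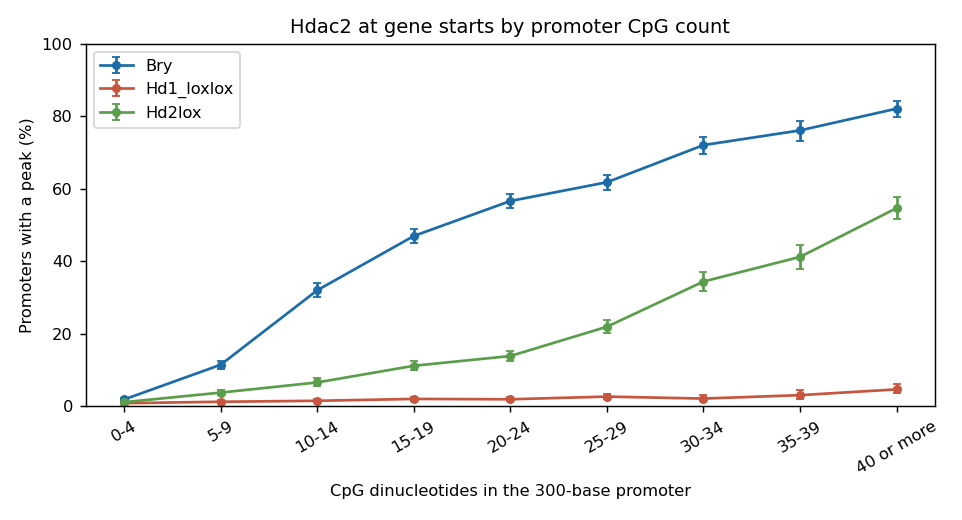
Share of promoters with an Hdac2 peak at the gene start (vertical axis, %) by the number of CpG dinucleotides in the 300-base promoter (horizontal axis), with Wilson 95% intervals as bars. Bry reaches 82.1% and Hd2lox 54.7% in the class with 40 or more, and Hd1_loxlox stays at or below 4.63%.

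Short sequence motifs were counted in the same promoters on both strands, 12 in all. They are matches of letters, not sites, and depend on base composition. The GC box GGGCGG, bound by SP and KLF factors, was in 79.4% of promoters marked in Bry and Hd2lox and in 85.3% of those in all 3 lists, against 46.2% of all promoters, 70.1% in Bry alone and 41.9% in Hd1_loxlox alone. The ETS motif CCGGAA went the other way between Bry alone (33.1%, Wilson interval 31.8 to 34.4%) and Bry with Hd2lox (20.9%, 19.1 to 22.8%), with 18.7% over all promoters. CCAAT, bound by NF-Y, was in 38.3% of promoters of Bry alone and in 30.2% of those of Bry and Hd2lox. Motifs without a CpG were less frequent in promoters of Bry and Hd2lox than in all promoters, but not always in those of Hd1_loxlox alone. The GATA motif AGATAA was in 9.65% of all promoters, 4.83% of Bry alone, 3.13% of Bry and Hd2lox and 9.30% of Hd1_loxlox alone, and TATAAA was in 12.6%, 5.99%, 3.44% and 8.53%. The RUNX motif TGTGGT was in 14.97%, 11.8%, 7.46% and 15.5%. The Smad motif CAGAC was in 48.4% of all promoters, in 41.9% of those in Bry and Hd2lox and in 59.7% (Wilson interval 51.1 to 67.8%) of the 129 in Hd1_loxlox alone. Promoters in no list were the class nearest to Hd1_loxlox alone in CpG count. There CAGAC was in 51.0%, AGATAA in 12.9%, TATAAA in 17.1% and TGTGGT in 17.9%. CAGAC was 1 of 12 motifs and no test was made.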

How the data were processed

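Chromatin from 3 ES lines was precipitated with an Hdac2 antibody and sequenced, with 1 library per line. The deposited values are positions: for each library the authors gave where each peak starts and ends on its chromosome, with no score, count or signal. Bowtie2 2.2.9, SAMtools 1.3.1, MACS2 2.1.1.20160309 and bcl2fastq are named, with mm10, per the submitters' processing notes. How MACS2 was run (threshold, mode, use of input) is not given in the sources used here. Neither the 3 Hdac1 lists nor the 3 input libraries were used here.

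Peaks of the 3 lists that overlapped by 1 bp or more were merged into regions with Python 3.11.15, pandas 2.3.3, numpy 2.4.6 and scipy 1.17.1, and figures were drawn with matplotlib 3.10.9. Positions are printed 1-based. The 21887 protein-coding genes were those of RefSeq on GRCm38.p6. The start was taken from the RefSeq promoter table for 17492 of them, and both annotated ends were used for the other 4395, which include all genes of chromosome 18. For the latter a peak at the start and a peak at the far end cannot be told apart, and this holds for the named genes Atp5a1, Bmp2, Bmp7, Capn5, Cdh5, Cdkn1c, Chd3, Col1a1, Dpysl3, Dusp4, Foxc2, Foxf1, Gm35364, Hand1, Hdac1, Hes1, Igsf5, Itgb3, Klf5, Mafa, Mgp, Myc, Nsd1, Nsd2, Pecam1, Pmepa1, Rims2, Skil, Smad2, Smad4, Smad7, Tyrobp, Zeb1 and Zfp521. Merging and counting were tested on simulated lists. Shares have 95% Wilson intervals.

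Genes named by rule were those with the highest mean percentile of peak width, 10 for all 3 lists, 15 for Bry and Hd2lox, 10 for Hd1_loxlox alone and 5 each for Bry and Hd2lox alone, and the 5 widest common and Hd1_loxlox regions. One gene named by this rule is not reported here. In the gene lists the members in the most lists were named by the rule, and further members were named for their role after values were seen. The members and the 27 gene lists were chosen with earlier results of these data known, and another 8 lists and the alternatives on chromosomes 8, 11 and 16 and on known starts were added after these values were seen.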

Additional observations from a re-analysis of the deposited data

How the results depend on the processing

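Over 67 recomputed values, the main counts and shares stayed within the limit set for a change in 22 and moved in 20, and other values stayed in 8 and moved in 17. The limit was a fixed factor for counts, the Wilson interval for shares and an interval of the median for widths. Keeping the widest 50% of each list, or leaving out a line, removes peaks by design. Lower counts there were built in, so the tally does not measure how firm the results are. Each list had 1 library, so leaving out a line shows which line a count rests on. Regions in at least 2 lists ranged from 170 to 2268 against 2504, with 170 without Bry, 306 without Hd2lox and 2268 without Hd1_loxlox, and genes in at least 2 lists from 142 to 2195 against 2367, with 142, 276 and 2195. With the widest 50% of each list, Bry and Hd2lox shared 1142 regions and 1118 genes (2269 and 2195 with all peaks), all 3 lists 40 regions and 39 genes (126 and 123), and Hd1_loxlox alone had 2478 regions (4800). The share of its peaks away from starts on chromosomes 8, 11 and 16 was then 24.2% (35.6%).

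The share at a gene start for regions of Bry and Hd2lox (90.2%) became 91.6% with a 2500 bp window, 83.9% with both gene ends, 92.1% with all annotated genes and 72.4% with known starts only. For all 3 lists (81.7%) it was 61.1% with known starts only. For Hd1_loxlox alone (4.31%) it was 3.04% with a 500 bp window, 8.63% with 2500 bp, 6.83% with both ends, 9.19% with all genes and 2.65% with known starts only. Under each of these windows that were run for all classes, the share of Hd1_loxlox alone was below that of Bry and Hd2lox. Depth is unknown, and peaks narrower than the least width of a list could not appear in it.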

Other observations

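MicroRNA genes were not part of the lists above. Of 1005 annotated hairpins, 63 overlapped a Bry peak, 22 an Hd2lox peak and 5 an Hd1_loxlox peak, and 19 overlapped both a Bry and an Hd2lox peak. The peaks covered 13.3 Mb in Bry, 8.01 Mb in Hd2lox and 5.60 Mb in Hd1_loxlox, of an annotated span of 2722 Mb. The shares given for gene starts do not apply to hairpins, and no share over other short features was computed. These counts are therefore a description only. Of these 19, 15 lay within 1000 bp of a protein-coding gene start, so the peak may belong to that gene. Among the 19 were Mir193a on chromosome 11 and Mir203 on chromosome 12. At Mir193a (chr11:79711969-79712034) the Bry peak was chr11:79710439-79712408 and the Hd2lox peak chr11:79710845-79712119. At Mir203 (chr12:112130880-112130955) they were chr12:112130119-112131186 and chr12:112130154-112131414. Both hairpins were covered whole. Their main mature sequences, from RefSeq on GRCm38.p6 with the seed of bases 2 to 8 in capitals, share no seed and are shown to identify the products of these loci.
mmu-miR-193a-3p: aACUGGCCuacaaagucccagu
mmu-miR-203-3p: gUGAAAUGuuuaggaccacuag

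The Hd2lox list had a gap on chromosome 14 that the other lists did not show. Over 115 full windows of 20 Mb on the autosomes, its peaks away from gene starts numbered from 8 to 84 with a median of 49. The 8 were at 40 to 60 Mb of chromosome 14, and the next 20 Mb held 10, whereas the other windows of that chromosome held 28 to 42. In these 2 windows Bry had 16 and 42 peaks (median over all windows 15) and Hd1_loxlox 17 and 35 (median 29). Genes there were also marked less often in Hd2lox, at 15 of 308 (4.87%) and 17 of 177 (9.60%), against 13.6% over all genes. This was not particular to Hd2lox or to the gap. At 40 to 60 Mb the shares in Bry (26.3%) and Hd1_loxlox (0.649%) were also below their backgrounds of 35.1% and 2.12%. At 60 to 80 Mb they were 41.2% and 1.69%. At 0 to 20 Mb of chromosome 14 the Hd2lox share was 3.15%. The window at 40 to 60 Mb was picked for its value, and no test was made. Copy number of the gap, which could change these peak counts, was not tested, since input reads were not used here.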
